A study of Mus musculus with 12 samples.

Results

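Complex I of the respiratory chain in the kidney was followed here through its nuclear genes, taken as every protein-coding mouse gene whose symbol starts with Nduf. The choice used names only, and 46 such genes were found among the 28991 gene identifiers of the count table. They are 36 subunits of the complex, 8 assembly factors (Ndufaf) and Ndufa4 and Ndufa4l2, which lie outside it. All 46 passed the filter on low counts.

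Complex I oxidises NADH made in the mitochondrial matrix, hands its electrons to ubiquinone and pumps protons across the inner membrane. Its N module binds NADH, its Q module reduces ubiquinone, and its proximal and distal membrane arms carry the proton channels, whose cores are made from mitochondrial DNA. Proximal tubule cells of the kidney are rich in mitochondria and pay for the recovery of filtered solutes largely by oxidative phosphorylation.

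Whole kidneys of male BALB/c mice, an inbred strain, aged 8 weeks, were profiled by RNA sequencing in 4 groups of 3 mice. Cisplatin+Dichloroacetate mice (called the combination) had dichloroacetate at 250 mg per kg by intraperitoneal injection daily for 5 days, then cisplatin at 20 mg per kg once together with dichloroacetate. Cisplatin mice had saline for 5 days, then the same single dose of cisplatin. Both groups were killed 24 h after cisplatin. Dichloroacetate mice had 250 mg per kg daily for 6 days, and Saline mice had saline daily for 6 days. Cisplatin is a platinum drug that injures kidney tubules, and dichloroacetate inhibits the kinases that switch off pyruvate dehydrogenase. The question was whether dichloroacetate alters the kidney's response to cisplatin.

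Library totals ran from 29505929 to 62237514 counts, and the 6 libraries with cisplatin had the lower ones. The 46 genes together took 0.535% to 0.553% of all counts in the combination, 0.463% to 0.491% in Cisplatin, 0.551% to 0.564% in Dichloroacetate and 0.497% to 0.562% in Saline kidneys. These shares are set against each library's total counts, which is a scaling in itself. Counts of mitochondrial DNA, part of that total, took 11.35% to 12.18% in Cisplatin and 13.86% to 14.76% in Saline kidneys. The shares of the 46 genes lay below all Saline values in every Cisplatin kidney and within the Saline range in every combination kidney. The Saline libraries stood apart from each other on these genes. Replicate 1 was the lowest Saline kidney for 45 of the 46 genes and replicate 3 the highest for 43, so that the median coefficient of variation was 9.98% in Saline, against 2.33% in the combination, 5.15% in Cisplatin and 2.48% in Dichloroacetate. Cisplatin replicate 1 was likewise the lowest Cisplatin kidney for 38 of the genes. Levels below are CPM, counts divided by the TMM-scaled library total and set to a common scale, and a gene was called, or said to rise or fall, at an edgeR adjusted p under 0.05 over 20370 tested genes.

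**Figure D1:**
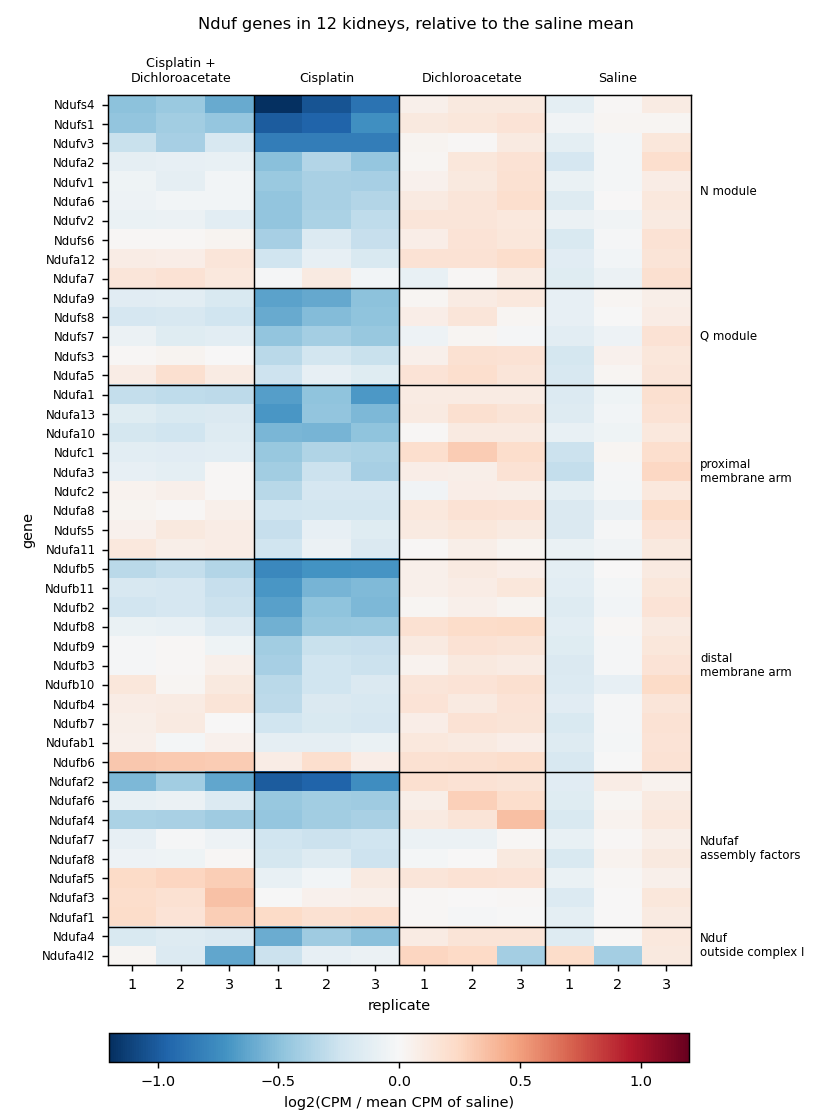
Heat map of 45 Nduf genes (rows, in blocks by module) in 12 kidneys (columns, by group and replicate). Colour gives log2 of CPM over the mean CPM of Saline, blue below it and red above it; most rows are bluest in the Cisplatin columns, and Saline replicates 1 and 3 lie on either side of their mean.

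Levels between genes were compared per kilobase of transcript. In Saline kidneys Ndufa4, now known as a subunit of complex IV, had the highest level at 908 ± 86.4 CPM per kb (SD, n = 3). Ndufa6, an N module accessory subunit, followed at 377 ± 36.55 and Ndufb9, of the distal arm, at 351.5 ± 34.27, a pair that did not differ beyond their spread. Module medians were close together, at 136 CPM per kb for the N module, 146 for the Q module, 130 for the proximal arm and 158.5 for the distal arm. The 8 Ndufaf genes ranged from 10.4 to 30.6, with a median of 16.5, below every subunit except Ndufb2, whose 30.0 was just under the highest Ndufaf gene. Ndufa4l2, a hypoxia-inducible relative of Ndufa4, was lowest at 2.87 ± 0.629. The order of single genes depends on the length used: per kilobase of all annotated exons Ndufa6 ranked 20 rather than 2, whereas the Ndufaf median, 12.8, was again below the module medians of 74.6 to 86.9.

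Cisplatin against Saline asked how the complex I genes stood a day into the injury. Of the 46 genes 37 fell and 1 rose, while 8 were not called. Among all tested genes 60.1% were called, with 30.4% lower and 29.7% higher. The median log2 fold change over the 46 was -0.37, against -0.01 over all tested genes. In 31 of them every Cisplatin kidney lay below every Saline kidney (32.7% of all tested genes did so), and in 1 every Cisplatin kidney lay above (32.2% of all tested genes). Log2 fold changes lay between -1.04 and 0.21. In whole kidney, fewer cells of a type and less RNA per cell cannot be told apart.

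The size of these counts rests on the scaling. With libraries scaled to total counts alone, tried after seeing the data, the median of all genes moved to 0.27 and 9749 genes rose while 3596 fell, against 6048 and 6196 after TMM scaling. The 46 genes then counted 18 lower and 6 higher, with a median of -0.09, which is 0.36 below that of all genes. Ndufaf3, Ndufaf5, Ndufa7, Ndufab1 and Ndufb6 were called higher beside Ndufaf1 there. Changes are given below relative to the TMM scale, on which the median gene is near 0. Without Saline replicate 3, the highest Saline kidney, Ndufb6 joined Ndufaf1 as a gene that rose (log2 fold change 0.22, adjusted p = 0.0084), for a count of 2. In that fit 5930 of 20568 tested genes rose.

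Markers of tubule cells moved with these genes. All 8 proximal tubule markers fell, with a median log2 fold change of -2.04, and their summed level was 2772 to 3245 CPM in Cisplatin kidneys, against 9058 to 10090 CPM in Saline kidneys. The 6 markers of the loop of Henle and distal tubule summed to 1701 to 2184 CPM in Cisplatin kidneys, against 3807 to 4330 CPM in Saline kidneys (5 fell and 1 rose). Those of the collecting duct, podocyte and endothelium also summed to less, whereas 4 neutrophil markers summed to 25.5 to 30.2 CPM in Cisplatin kidneys, against 16.8 to 25.02 CPM in Saline kidneys. No marker of these lists was at 0 in all libraries, and their part in the result was not tested.

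In the N module 9 of 10 subunits fell, with a median of -0.41. Under total-count scaling 5 fell and 1 rose. Ndufs4, an accessory subunit that ties the N module to the arm below it and whose loss causes Leigh syndrome in humans, lies at chr13:114287795-114388258 (mm10). It had 37.0, 42.5 and 47.15 CPM in Cisplatin kidneys, against 80.1, 87.95 and 93.1 CPM in Saline kidneys. The groups lay far apart, and Ndufs4 fell by 1.04 on the log2 scale (SE 0.08, adjusted p = 1.6e-07). Ndufs1, the iron-sulphur core subunit that leads electrons away from the NADH site (chr1:63143596-63176833, with 6.0% of its exon bases shared with a non-coding gene on the opposite strand), had 147, 151 and 176 CPM in Cisplatin kidneys, against 284.5, 297.6 and 297.5 CPM in Saline kidneys. The 2 groups did not overlap, and the log2 fold change was -0.89 (SE 0.06, adjusted p = 4.9e-08). Ndufv3, an accessory subunit at the tip of the module, was lowered by 0.83 (SE 0.07, adjusted p = 2.4e-07). Ndufv1, which binds the flavin that takes electrons from NADH, had 218.5, 226.3 and 226.1 CPM in Cisplatin kidneys, against 282, 292.5 and 317 CPM in Saline kidneys. Its fall was 0.41 (SE 0.06, adjusted p = 2.1e-05), again with no overlap. Ndufa12 sat at the other end at -0.17 (SE 0.07, adjusted p = 0.044) but above 0 under total-count scaling, with 92.4, 101.8 and 95.5 CPM in Cisplatin kidneys, against 99.15, 106.1 and 120.7 CPM in Saline kidneys, which overlap. Its call was lost with DESeq2, with limma, with RLE scaling, with no filter on low counts and when only the contrast's groups were fitted. It was also lost without Saline replicate 2 or 3 or Cisplatin replicate 1 or 3. Ndufa7 was the subunit of the module with no call, at 0.02 (SE 0.08, adjusted p = 0.83).

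In the Q module 5 of 6 subunits fell, with a median of -0.49, and 4 under total-count scaling. Ndufa9, a nucleotide-binding accessory subunit, was at -0.58 (SE 0.06, adjusted p = 1.5e-06). Ndufa5 missed the threshold at -0.16 (SE 0.08, adjusted p = 0.077), and lay above 0 at 0.12 under total-count scaling.

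The proximal membrane arm had 8 of 9 genes lower with a median of -0.36, and the distal arm 9 of 11 with a median of -0.30. Under total-count scaling 3 proximal arm genes fell, and in the distal arm 4 fell and 2 rose. Ndufa10, a proximal arm subunit related to nucleoside kinases, had 146.0, 144.9 and 152.7 CPM in Cisplatin kidneys, against 201.5, 205.9 and 233.8 CPM in Saline kidneys. It fell by 0.53 (SE 0.06, adjusted p = 4.9e-06). Ndufb8, a distal arm subunit whose protein is often blotted as a sign of assembled complex I, had 152.9, 166.2 and 167.1 CPM in Cisplatin kidneys, against 209.1, 229.9 and 245.1 CPM in Saline kidneys. Neither pair of groups overlapped, and the fall of Ndufb8 was 0.49 (SE 0.06, adjusted p = 1.1e-05). Ndufb5, which shares 12.3% of its exon bases with Mrpl47 on the opposite strand, had the lowest value of the membrane arms at -0.73 (SE 0.06, adjusted p = 1.4e-07). Ndufa8, with cysteine motifs typical of intermembrane space proteins, had 87.1, 88.4 and 88.0 CPM in Cisplatin kidneys, against 91.2, 97.85 and 119.4 CPM in Saline kidneys, and the groups did not overlap. Ndufa11 had 65.2, 73.1 and 68.15 CPM in Cisplatin kidneys, against 72.7, 74.7 and 83.7 CPM in Saline kidneys, which overlap. Their calls, at -0.23 (adjusted p = 0.023) for Ndufa8 and -0.16 (adjusted p = 0.036) for Ndufa11, turned above 0 under total-count scaling. The calls were each lost without Saline replicate 3 or Cisplatin replicate 1, and when only the contrast's groups were fitted. That of Ndufa8 was also lost without Cisplatin replicate 2. That of Ndufa11 was also lost without Cisplatin replicate 3, with DESeq2 and with no filter on low counts. Ndufb6 was at 0.12 (adjusted p = 0.18) and Ndufab1, the acyl carrier protein of mitochondria, at -0.10 (adjusted p = 0.24; 0.18 and called higher under total-count scaling), both without a call.

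Of the 8 assembly factors 5 fell, 1 rose and 2 were not called. Under total-count scaling 1 fell and 3 rose. Ndufaf2, which sits on the nascent complex where Ndufa12 later binds (chr13:108002715-108158623), had 5.25, 5.41 and 6.28 CPM in Cisplatin kidneys, against 9.57, 11.2 and 10.8 CPM in Saline kidneys. It fell by 0.90 (SE 0.09, adjusted p = 2e-06) with no overlap. Some 65.6% of its exon bases also lie in exons of a non-coding gene on the opposite strand, and the library kit in its basic form keeps no strand, so their reads cannot be told apart. Ndufaf1, a member of the mitochondrial complex I assembly complex that builds the membrane arm (chr2:119655446-119662827), was the gene that rose. It had 28.5, 27.5 and 27.9 CPM in Cisplatin kidneys, against 22.4, 24.3 and 26.05 CPM in Saline kidneys. Here too the groups did not overlap, and the rise was 0.21 (SE 0.06, adjusted p = 0.0074). Ndufaf7, a mitochondrial methyltransferase, had 26.8, 26.4 and 26.8 CPM in Cisplatin kidneys, against 29.6, 32.0 and 33.15 CPM in Saline kidneys (log2 fold change -0.24, SE 0.05, adjusted p = 0.00094, turning to 0.03 under total-count scaling). Ndufaf4 and Ndufaf6 fell by 0.42 and 0.43, and Ndufaf8 by 0.20, but under total-count scaling none of these 3 was called, with Ndufaf4 at -0.14 (adjusted p = 0.074), Ndufaf6 at -0.16 (adjusted p = 0.065) and Ndufaf8 at 0.08. Ndufaf3, the partner of Ndufaf4 in early assembly, was at 0.04 (adjusted p = 0.68), with 18.9, 19.7 and 19.8 CPM in Cisplatin kidneys, against 17.0, 19.1 and 20.9 CPM in Saline kidneys. Ndufaf5 was not called (SE 0.07, adjusted p = 0.99).

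Outside the complex, Ndufa4 had 276, 310.2 and 295.2 CPM in Cisplatin kidneys, against 376.3, 421.5 and 455.6 CPM in Saline kidneys. Its log2 fold change was -0.51 (SE 0.07, adjusted p = 1.6e-05). Ndufa4l2 had 2.24, 2.497 and 2.55 CPM in Cisplatin kidneys, against 3.12, 2.01 and 2.904 CPM in Saline kidneys, with no call in any comparison.

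**Figure D2:**
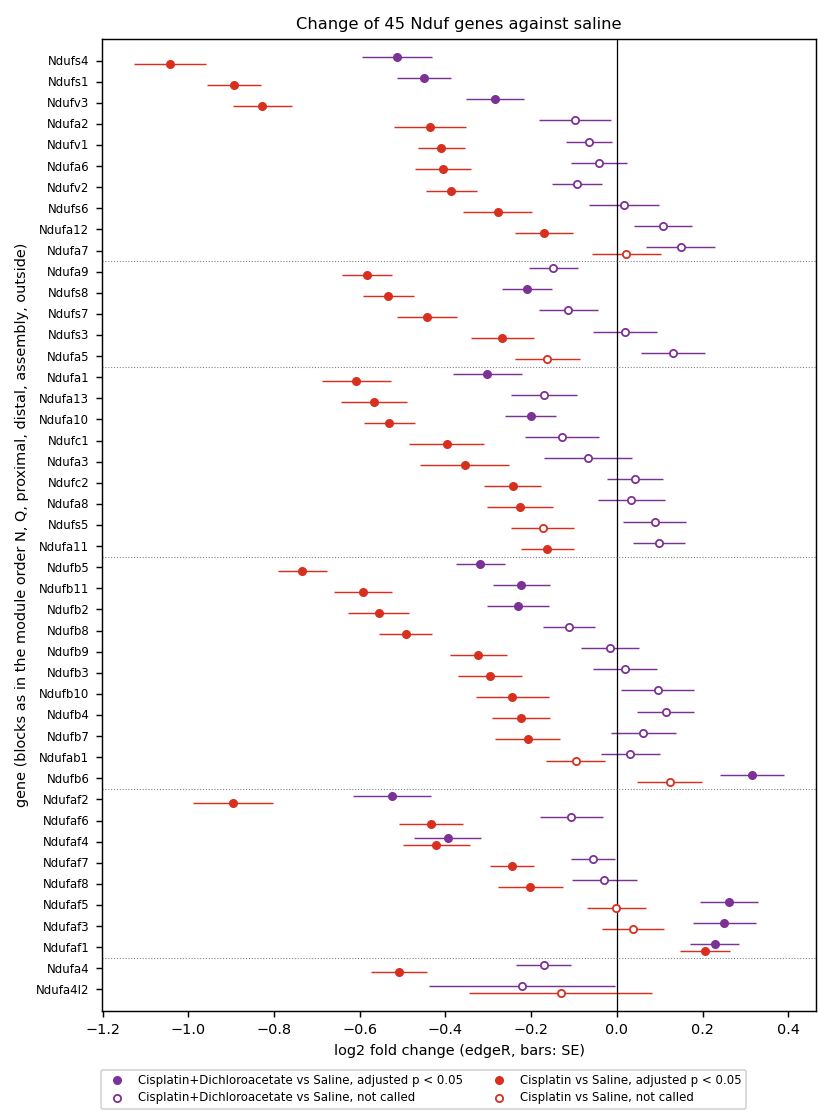
Log2 fold change of 45 Nduf genes with SE, for Cisplatin+Dichloroacetate against Saline (purple, upper mark) and Cisplatin against Saline (red, lower mark); filled marks have an adjusted p under 0.05. Both comparisons share the Saline kidneys. Red marks run from Ndufs4 at -1.04 to Ndufaf1 at 0.21, and for Ndufaf4 the marks, at -0.395 and -0.42, lie together.

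Upstream sequences are shown for 6 genes that span this range, from the lowered Ndufaf2 and Ndufv3 to the raised Ndufaf1. They come from RefSeq (GRCm38.p6), cover the bases before the start site up to the nearest exon or 250 bases, and read along the gene's strand, with capitals for motif matches.
Ndufaf2: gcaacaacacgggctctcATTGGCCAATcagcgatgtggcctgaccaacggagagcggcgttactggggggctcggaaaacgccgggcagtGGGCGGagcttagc
Ndufv3: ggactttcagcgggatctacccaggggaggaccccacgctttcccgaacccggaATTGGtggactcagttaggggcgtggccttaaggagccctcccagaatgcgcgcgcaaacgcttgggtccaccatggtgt
Ndufa9: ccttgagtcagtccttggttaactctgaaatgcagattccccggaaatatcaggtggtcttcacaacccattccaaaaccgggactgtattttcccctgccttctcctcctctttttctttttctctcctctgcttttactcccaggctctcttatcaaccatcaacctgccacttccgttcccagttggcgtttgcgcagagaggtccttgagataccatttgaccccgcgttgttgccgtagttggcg
Ndufb8: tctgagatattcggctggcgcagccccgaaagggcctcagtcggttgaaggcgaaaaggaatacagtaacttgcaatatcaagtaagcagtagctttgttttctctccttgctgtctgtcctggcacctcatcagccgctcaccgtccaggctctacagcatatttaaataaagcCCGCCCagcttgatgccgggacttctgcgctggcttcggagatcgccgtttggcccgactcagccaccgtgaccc
Ndufa11: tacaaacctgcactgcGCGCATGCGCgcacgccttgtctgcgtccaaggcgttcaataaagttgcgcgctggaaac
Ndufaf1: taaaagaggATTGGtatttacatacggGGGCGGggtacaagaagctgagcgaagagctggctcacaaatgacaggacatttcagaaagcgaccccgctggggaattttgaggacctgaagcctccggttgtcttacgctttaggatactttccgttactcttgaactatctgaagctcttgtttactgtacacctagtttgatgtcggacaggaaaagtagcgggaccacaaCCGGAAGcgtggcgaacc
The stretches lie at chr13:108158626-108158730 (minus strand), chr17:31519981-31520114 (plus), chr6:126849145-126849394 (minus), chr19:44555443-44555692 (minus), chr17:56717686-56717761 (plus) and chr2:119662835-119663084 (minus). Ndufa11 holds a match to the NRF1 motif, the palindromic recognition sequence of nuclear respiratory factor NRF1. Ndufaf1 holds an ETS motif (CCGGAAG), the core bound by the GABP family, with CCAAT and GC boxes (GGGCGG) further up. In the stretches shown, Ndufaf2, Ndufv3 and Ndufb8 hold only CCAAT or GC boxes, and the window shown for Ndufa9 has no match. No match says only that these letters are not in the window.

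Of the 46 genes 40 had a promoter in the table, reaching from 250 bases before the start to 50 after it. Both strands were searched. NRF1 motifs were found in 9 of the 40 (22.5%), against 4.6% of 32851 promoters of all genes, and the YY1 motif (AAGATGGC) in 8 (20%), against 2.75%. ETS motifs stood in 6 (15%), against 8.86%, CRE motifs (TGACGTCA) in 3 (7.5%), against 1.79%, and ERR motifs (AAGGTCA) in 3 (7.5%), against 4.72%. CCAAT boxes were in 35.0%, against 37.4%, and GC boxes in 52.5%, against 35.7%. The NRF1 matches belong to Ndufa5, Ndufa6, Ndufa8, Ndufa11, Ndufaf4, Ndufaf5, Ndufb4, Ndufs5 and Ndufs6, whose log2 fold changes in Cisplatin ran from -0.42 for Ndufaf4 to -0.001 for Ndufaf5. Outside the stretches shown above, the searched promoters of Ndufa9 and Ndufb8 hold YY1 matches, that of Ndufv3 a GC box and that of Ndufa11 a CRE motif. A match is a description of sequence, not evidence of binding.

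Many of these genes share a start region with a neighbour. For 19 of the 46 another gene on the opposite strand starts within 500 bases, and 18 such neighbours were tested. How often this holds over all genes was not counted. In Cisplatin against Saline 10 of the neighbours rose, 1 fell and 7 were not called, where 29.7% of all tested genes rose and 30.4% fell. Their median log2 fold change was 0.15, against -0.31 for the 18 Nduf genes. Ndufs1 and Eef1b2, a translation elongation factor, overlap over 9 exon bases at their starts. Ndufs1 fell by 0.89 and Eef1b2 was at 0.41 (SE 0.06, adjusted p = 2.1e-05). The ratio of their counts, which needs no library scaling, was 0.656, 0.679 and 0.800 in Cisplatin kidneys, against 1.86, 1.765 and 1.67 in Saline kidneys. In the combination it was 1.015, 1.016 and 0.990, between those groups. Ndufaf2 stood at -0.90 beside the repair gene Ercc8 at -0.09 (adjusted p = 0.48), and Ndufv3 at -0.83 beside Wdr4 at -0.03 (adjusted p = 0.67). Ndufa4 and Phf14 fell together, at -0.51 and -0.57. Differences within pairs carry no test of their own. Ndufa13 shares 30.0% of its exon bases with its neighbour Tssk6, so that pair is uncertain.

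**Figure D3:**
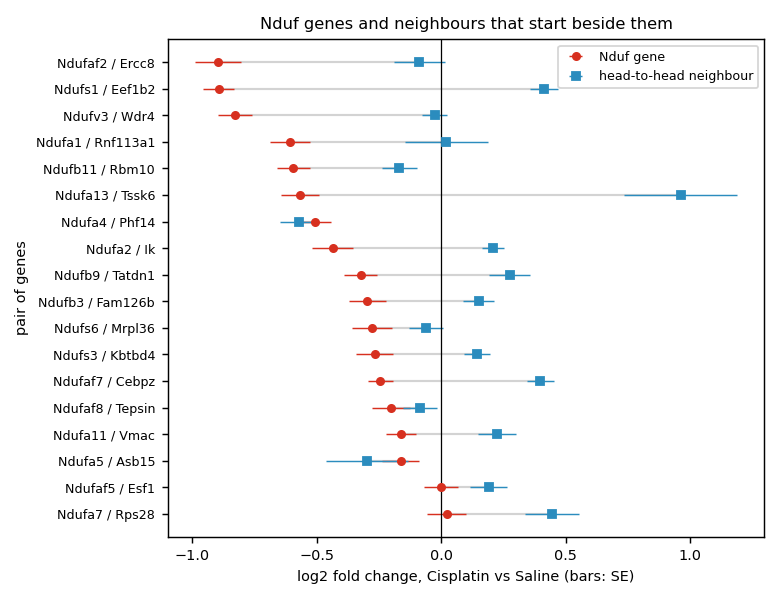
Log2 fold change with SE in Cisplatin against Saline for 18 Nduf genes (red circles) and the genes that start beside them on the opposite strand (blue squares), 1 pair per row. For Ndufs1 and Eef1b2 the marks lie at -0.89 and 0.41; for Ndufa4 and Phf14 they lie together.

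Genes were also set against others of their own span. Ndufs4 and Ndufaf2 are the 2 genes here that span over 50 kb, and had a median of -0.97, while the 4266 tested genes over 50 kb had a median of -0.35. In each shorter class the Nduf median was also below that of all genes, for instance -0.36 over 13 genes of up to 5 kb, against 0.13 over 5469. The rank correlation of fold change with span was -0.24 over the 46 genes and -0.27 over 19824 genes, as a description across genes that are not independent.

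Dichloroacetate against Saline asked what the drug did without injury. None of the 46 genes was called by edgeR, where 0.309% of all tested genes were (0.128% higher and 0.182% lower), and none by limma. At an unadjusted p under 0.05 there were 12, which is 26.1% (11.9% of all tested genes). DESeq2 called Ndufb8 higher at 0.22 (SE 0.07, adjusted p = 0.048), for a count of 1. Over all genes it called 182 higher. In edgeR Ndufb8 had 258.8, 265.4 and 267.0 CPM in Dichloroacetate kidneys, against 209.1, 229.9 and 245.1 CPM in Saline kidneys, which do not overlap. The difference of 0.21 on the log2 scale (SE 0.06) had an adjusted p of 0.18. The log2 fold change was above 0 for 43 of the 46 (48.3% of all tested genes), with a median of 0.12. In 9 genes every Dichloroacetate kidney lay above every Saline kidney (7.64% of all tested genes). Saline replicate 1 was the low kidney of these genes and replicate 3 the high one. Without replicate 1 the median was 0.05, and without replicate 3 it was 0.19 and Ndufa8 and Ndufb10 were called higher, at 0.28 and 0.30, for a count of 2. Without replicate 3, 72 of 20568 tested genes were called higher.

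The combination against Cisplatin asked how kidneys after cisplatin differed when dichloroacetate had been given before it and together with it. Here 39 of the 46 genes rose, none fell and 7 were not called. Among all tested genes 31.6% were called, with 18.1% higher and 13.5% lower. The median log2 fold change was 0.31, against 0.02 over all genes. In 43 of the 46 every combination kidney lay above every Cisplatin kidney (25.2% of all tested genes). Without Cisplatin replicate 1, the lowest Cisplatin kidney for most of these genes, 21 rose with a median of 0.24. Under total-count scaling 24 rose and none fell, with a median of 0.18 where that of all genes was -0.11. Of all 20370 tested genes 2317 rose and 5134 fell under that scaling. The 8 proximal tubule markers rose too, by a median of 0.96, and summed to 4902 to 5391 CPM in the combination, against 2772 to 3245 CPM in Cisplatin kidneys. Of 4 neutrophil markers 2 fell, with sums of 18.1 to 22.3 CPM in the combination, against 25.5 to 30.2 CPM in Cisplatin kidneys, and 1 of 4 macrophage markers fell, in a list whose lowest log2 fold change was -2.77. The part of these cells in the result was not tested.

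**Figure D4:**
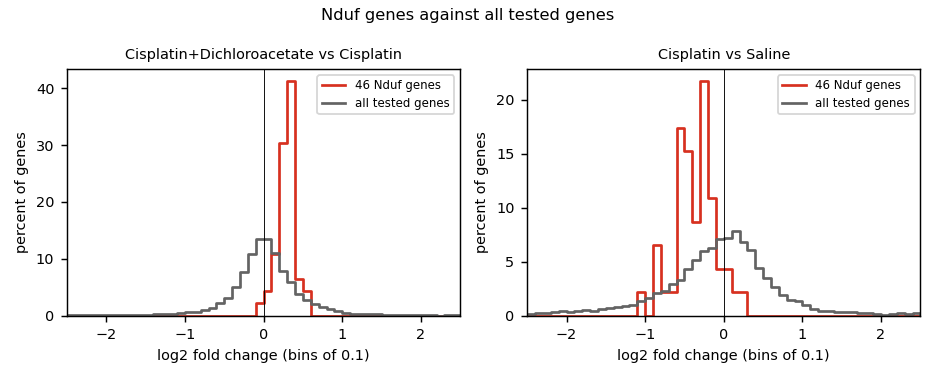
Distribution of log2 fold changes in bins of 0.1 for 46 Nduf genes (red) and 20370 tested genes (grey), for Cisplatin+Dichloroacetate against Cisplatin (left) and Cisplatin against Saline (right), which share the Cisplatin kidneys. The Nduf genes centre on 0.31 at left and on -0.37 at right, and all genes near 0 in both.

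By module, 9 of 10 N genes, all 6 Q genes, all 9 proximal arm genes, 9 of 11 distal arm genes and 5 of 8 assembly factors rose, with medians of 0.34, 0.33, 0.29, 0.33 and 0.20. Under total-count scaling the numbers that rose were 7, 4, 3, 8 and 1, and none fell. Ndufv3 (chr17:31520115-31531331) had the largest rise. It had 96.3, 88.3 and 101.7 CPM in the combination, against 65.6, 65.5 and 65.3 CPM in Cisplatin kidneys, which lay close together and below. The log2 fold change was 0.54 (SE 0.07, adjusted p = 6.8e-05). Ndufs4 had 62.0, 63.7 and 57.2 CPM in the combination, against 37.0, 42.5 and 47.15 CPM in Cisplatin kidneys. It rose by 0.53 (SE 0.08, adjusted p = 0.00033). Ndufs1 had 211.3, 219.8 and 212.0 CPM in the combination, all above the 147, 151 and 176 CPM in Cisplatin kidneys, and rose by 0.44 (SE 0.06, adjusted p = 0.00015). The core subunit Ndufv1 had 286.2, 276.1 and 289.7 CPM in the combination, above all 3 Cisplatin values given earlier, and rose by 0.35.

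In the membrane arms Ndufb8 had 215.1, 214.5 and 203.2 CPM in the combination, above every Cisplatin kidney, and rose by 0.38 (SE 0.06, adjusted p = 0.0004). Ndufa10 had 185.2, 180.7 and 191.7 CPM and rose by 0.33 (SE 0.06, adjusted p = 0.001). Ndufa8, at 105.1, 103.6 and 107.1 CPM in the combination, and Ndufa11, at 84.3, 81.1 and 82.0 CPM, each rose by 0.26. Ndufa12 had 115.8, 114.6 and 120.6 CPM in the combination and rose by 0.28. None of these 3 genes was called under total-count scaling, with Ndufa8 at 0.13 (adjusted p = 0.14), Ndufa11 at 0.13 (adjusted p = 0.076) and Ndufa12 at 0.15 (adjusted p = 0.054). Without Cisplatin replicate 1 their adjusted p was 0.094, 0.055 and 0.06. Ndufa8 was also lost without Cisplatin replicate 2 (adjusted p = 0.056), combination replicate 1 (0.057) or combination replicate 3 (0.096). Ndufb6 at 0.19 (adjusted p = 0.07), Ndufab1 at 0.13 (adjusted p = 0.19) and Ndufa7 at 0.13 (adjusted p = 0.27) were not called. Outside the complex Ndufa4 had 367.5, 374.8 and 371.3 CPM in the combination and rose by 0.34 (SE 0.07, adjusted p = 0.0015), while Ndufa4l2 had 2.73, 2.39 and 1.74 CPM.

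Among assembly factors the response was uneven. Ndufaf4 had 45.8, 45.4 and 44.3 CPM in the combination, against 43.2, 44.6 and 45.3 CPM in Cisplatin kidneys, which overlap, and its log2 fold change was 0.03 (SE 0.08, adjusted p = 0.84). Ndufaf1 was likewise not called, at 0.02 (SE 0.06, adjusted p = 0.83), with 28.3, 27.1 and 29.7 CPM in the combination, against 28.5, 27.5 and 27.9 CPM in Cisplatin kidneys. The interval of 2 SE ran from -0.13 to 0.182 for Ndufaf4 and from -0.095 to 0.138 for Ndufaf1. Ndufaf2 had 7.25, 7.88 and 6.82 CPM in the combination, above every Cisplatin kidney, and rose by 0.37 (SE 0.10, adjusted p = 0.0092). That call was lost without Cisplatin replicate 1 (adjusted p = 0.055). Ndufaf3 had 21.9, 21.5 and 24.2 CPM in the combination and rose by 0.21 (SE 0.07, adjusted p = 0.041), and Ndufaf7 had 29.55, 31.24 and 30.31 CPM and rose by 0.19 (SE 0.05, adjusted p = 0.013). Ndufaf3 lost its call with DESeq2, with limma, with RLE scaling and when only the contrast's groups were fitted. It also lost the call without each Cisplatin replicate in turn or combination replicate 1 or 3. Ndufaf7 lost it without Cisplatin replicate 1 or combination replicate 2 or 3. Total-count scaling ended all 3 calls, with Ndufaf2 at 0.25 (adjusted p = 0.055), Ndufaf3 at 0.085 (adjusted p = 0.32) and Ndufaf7 at 0.06 (adjusted p = 0.33). Ndufaf5, which hydroxylates Ndufs7, rose by 0.26 (SE 0.07, adjusted p = 0.0097) and Ndufaf6 by 0.33 (SE 0.08, adjusted p = 0.0049). As 1 Ndufaf gene rose under total-count scaling, the calls of Ndufaf5 and Ndufaf6 did not both hold there. Ndufaf8, the partner of Ndufaf5, was at 0.17 (adjusted p = 0.11).

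**Figure D5:**
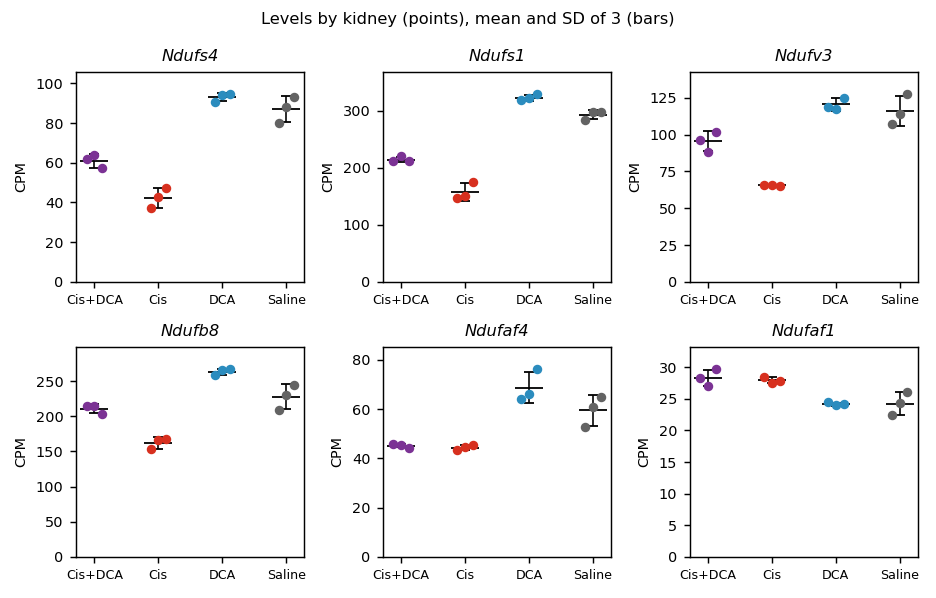
CPM of 6 Nduf genes in each kidney (points, 3 per group), with the group mean and SD (bars), for Cisplatin+Dichloroacetate, Cisplatin, Dichloroacetate and Saline from left to right. Ndufs4, Ndufs1, Ndufv3 and Ndufb8 are lowest in Cisplatin; Ndufaf4 is at 44.4 to 45.2 CPM on average in both groups with cisplatin, and Ndufaf1 is higher in both.

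Against Saline the combination left a mixed picture, with 12 genes lower, 4 higher and 30 not called (40.2% of all tested genes were called, 19.6% lower and 20.6% higher). The median was -0.07, against 0.01 over all genes. Total-count scaling gave 5 lower and 17 higher with a median of 0.09, where that of all genes was 0.16. Of all 20370 tested genes 2508 were lower and 7482 higher under that scaling. In the same comparison 7 of 8 proximal tubule markers fell (median -0.96), as did 5 of 6 of the loop of Henle and distal tubule (median -0.99) and all 4 of endothelium. Their part in the result was not tested. The lower genes were led by Ndufaf2 at -0.52 (SE 0.09, adjusted p = 0.00052), Ndufs4 at -0.51 (SE 0.08, adjusted p = 0.00026) and Ndufs1 at -0.45 (SE 0.06, adjusted p = 8e-05). Ndufaf4 at -0.395 (SE 0.08, adjusted p = 0.0013), Ndufb5 at -0.32, Ndufa1 at -0.30 and Ndufv3 at -0.28 followed. The higher genes were Ndufb6 at 0.32 (SE 0.08, adjusted p = 0.0048), Ndufaf5 at 0.26, Ndufaf3 at 0.25 and Ndufaf1 at 0.23. Ndufb6 shares 39.0% of its exon bases with Smim27 on the opposite strand. Without Saline replicate 3 the higher genes numbered 12, where 4176 of 20568 tested genes were higher. Ndufaf3 lost its call without Saline replicate 1 (adjusted p = 0.061) or combination replicate 3 (adjusted p = 0.081), and when only the contrast's groups were fitted.

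Against Dichloroacetate, the comparison of cisplatin under the drug, 21 genes of the combination were lower, 2 were higher and 23 were not called (40.7% of all tested genes were called, 19.2% lower and 21.5% higher). The median was -0.18, against 0.01 over all genes. Under total-count scaling 8 were lower and 10 higher, with a median of 0.01 where that of all genes was 0.20. Of all 20370 tested genes 2225 were lower and 8458 higher under that scaling. Of the proximal tubule markers 7 of 8 fell here (median -0.81), and of the loop of Henle and distal tubule markers 4 of 6 fell (median -1.01). Their part in the result was not tested. Ndufaf2 fell by 0.70 (SE 0.09, adjusted p = 4.5e-05) and had 12, 11.86 and 11.73 CPM in Dichloroacetate kidneys. Ndufs4, with 90.6, 94.2 and 94.5 CPM in Dichloroacetate kidneys, fell by 0.61 (SE 0.08, adjusted p = 5.7e-05). Ndufaf4 had 45.8, 45.4 and 44.3 CPM in the combination, against 64.1, 66.1 and 76.15 CPM in Dichloroacetate kidneys, and fell by 0.605 (SE 0.08, adjusted p = 3.8e-05), with no overlap. Ndufs1, with 318.0, 321.4 and 328.5 CPM in Dichloroacetate kidneys, fell by 0.59. The 2 higher genes were Ndufaf3 at 0.24 and Ndufaf1 at 0.23, and 1 was left without combination replicate 3. In that fit 3511 of 20698 tested genes were higher.

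An interaction term, the change with cisplatin under dichloroacetate less the change without it, tests whether the 2 responses differ. It was called above 0 for 8 of the 46 genes (17.4%) and below 0 for none. Of all tested genes 11.4% were called above 0, 7.15% below 0 and 18.6% in either direction. The share called in either direction is thus near the background, while all 8 calls lay above 0. The median interaction was 0.20, against 0.03 over all genes. Under total-count scaling it was 0.11, against -0.06. DESeq2 called 7 and limma 6, and 19 genes had an unadjusted p under 0.05 (31.4% of all tested genes). Ndufv3 led: cisplatin changed it by -0.34 with dichloroacetate (96.3, 88.3 and 101.7 CPM in the combination, against 119.0, 117.3 and 125.1 CPM in Dichloroacetate kidneys) and by -0.83 without it (65.6, 65.5 and 65.3 CPM in Cisplatin kidneys, against 107.4, 114.0 and 127.3 CPM in Saline kidneys). The interaction was 0.49 (SE 0.10, adjusted p = 0.0035). For Ndufa9 the changes were -0.23 with dichloroacetate (182.1, 183.5 and 176.7 CPM in the combination, against 203.1, 214.2 and 219.1 CPM in Dichloroacetate kidneys) and -0.58 without it (128.6, 130.5 and 142.0 CPM in Cisplatin kidneys, against 187.1, 203.2 and 210.7 CPM in Saline kidneys). Its interaction was 0.35 (SE 0.08, adjusted p = 0.0099). Ndufb5 changed by -0.40 with dichloroacetate (121.1, 123.8 and 118.7 CPM in the combination, against 157.4, 162.6 and 159.5 CPM in Dichloroacetate kidneys) and by -0.73 without it (88.3, 91.9 and 92.4 CPM in Cisplatin kidneys, against 139.1, 151.5 and 162.9 CPM in Saline kidneys), an interaction of 0.335 (SE 0.08, adjusted p = 0.012).

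The number of interaction calls moved with single libraries. It was 20 without Saline replicate 1, where 2398 of 20543 tested genes were called above 0. Values in brackets below count all tested genes called above 0. The number fell to 5 without Saline replicate 2 (1833). It was 4 or 5 without Dichloroacetate replicate 1 or 2 (1880 or 2003), and 2 or 5 without Cisplatin replicate 1 or 2 (1538 or 1722). Leaving out combination replicate 1, 2 or 3 gave 3, 4 and 4 (1812, 2006 and 1768). Total-count scaling gave 5 (1712). All 8 proximal tubule markers were called above 0 in the interaction, and their part in it was not tested.

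The 7 subunits made from mitochondrial DNA, which form the proton-pumping core and are no Nduf genes, were set beside the nuclear ones. All 7 fell in Cisplatin against Saline (30.4% of all tested genes), with a median of -0.75, from mt-Nd4l at -0.98 to mt-Nd1 at -0.17. Total-count scaling left 6 of them lower and 1 not called, where 3596 of all 20370 tested genes fell. mt-Nd4 had 6615, 6608 and 7303 CPM in Cisplatin kidneys, against 12690, 12390 and 11820 CPM in Saline kidneys, and fell by 0.85 (SE 0.05, adjusted p = 1.3e-08). In the combination against Cisplatin all 7 rose (18.1% of all tested genes), by a median of 0.23. Under total-count scaling 1 did, where 2317 of all 20370 tested genes rose. mt-Nd4 had 8044, 8594 and 8249 CPM in the combination. Against Saline the combination was still lower for 6 of the 7 (19.6% of all tested genes), with a median of -0.53. In that comparison mt-Nd1 was not called at 0.045 (adjusted p = 0.5). Total-count scaling gave 5 lower and 1 higher there, against 2508 lower and 7482 higher of all 20370 tested genes. None of the 7 was called in the interaction (18.6% of all tested genes).

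Of 11 tested assembly factors with other names, 6 fell, 2 rose and 3 were not called in Cisplatin against Saline, where 60.1% of all tested genes were called. Total-count scaling gave 5 lower and 5 higher, where 3596 of all 20370 tested genes fell and 9749 rose. Nubpl, which delivers iron-sulphur clusters to complex I, had 3.55, 2.79 and 3.18 CPM in Cisplatin kidneys, against 20.4, 22.8 and 23.0 CPM in Saline kidneys. It fell by 2.80 (SE 0.11, adjusted p = 2.7e-10), well beyond any Nduf gene. In the combination it had 4.65, 4.10 and 5.42 CPM, a rise of 0.57 over Cisplatin (SE 0.12, adjusted p = 0.0029), and its log2 fold change against Saline was -2.225. Tmem126a was the highest at 0.29 (SE 0.07, adjusted p = 0.0022). In the combination against Cisplatin 5 of the 11 rose (18.1% of all tested genes), none fell and 6 were not called.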

How the data were processed

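The authors deposited raw counts per Ensembl gene for 12 libraries and a table of normalised signal, whose columns equal the counts divided by median-of-ratios size factors (12 of 12 columns, tolerance 1e-04). Per the submitters' processing notes, Trimmomatic, TopHat, Cufflinks, HTSeq, bedtools, DESeq and mm10 were used. Their versions and roles are not given in the sources used here. Per the labels' protocols, total RNA was taken with a column kit, treated with DNase and made into TruSeq RNA libraries.

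Of 28991 identifiers, 27955 matched GENCODE M21 (GRCm38, the assembly of mm10). Counts were fitted with edgeR 4.0.16 in R 4.3.3 (filterByExpr, TMM, quasi-likelihood test, 1 mean per group over all 12 libraries). Tests were 2-sided, with Benjamini-Hochberg adjustment over 20370 genes, and the biological coefficient of variation was 0.092 on 8 residual degrees of freedom. DESeq2 1.42.0 and limma 3.58.1 (on log2 of the deposited signal plus 1) served as alternatives, beside RLE scaling, TMM without mitochondrial genes, other filters, fits of the contrast's groups only, a replicate block and leaving out each library. Replicates differed beyond counting noise (chi-square per degree of freedom 4.405 to 26.32 over 12 pairs) and were each counted. The labels call them biological. For the combination and Dichloroacetate, libraries with the same number deviated together weakly (correlations 0.107 to 0.221). The labels state no pairing and the main tests did not pair libraries, so the replicate block served only as an alternative.

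Values in every library are given for the 3 lowest and 3 highest called genes of Cisplatin against Saline and of the combination against Cisplatin, the 3 interaction genes of lowest adjusted p, and 7 genes chosen for their role. Ndufaf4 and mt-Nd4 were added after their values were seen. Nubpl, Pdss2, Esrrg and Pprc1 are shown as the lowest or highest called gene of their list in Cisplatin against Saline. A further gene is counted among the 46 but its own values are not reported here. Genes and lists were chosen with earlier results of these data known. Sequences are from RefSeq, where 6 of the 46 genes had none or were left out.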

Additional observations from a re-analysis of the deposited data

Results flagged for a closer look

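For 7 named genes the response to cisplatin differed between mice with and without dichloroacetate, by the interaction test of edgeR. Among the 46 genes 17.4% were called, all above 0. Of all tested genes 18.6% were called, with 11.4% called above 0, so the share called in either direction is near the background. Ndufv3, an accessory subunit of the N module, responded by -0.34 with dichloroacetate and -0.83 without it, a difference of 0.492 (adjusted p = 0.0035). In the same module the difference was 0.433 for Ndufs4 (-0.61 with and -1.04 without, adjusted p = 0.02) and 0.305 for Ndufs1 (-0.59 with and -0.89 without, adjusted p = 0.029). Q module genes were Ndufa9 with 0.353 (-0.23 with and -0.58 without, adjusted p = 0.0099) and Ndufs7 with 0.348 (-0.10 with and -0.44 without, adjusted p = 0.024). Ndufb5 of the distal arm differed by 0.335 (-0.40 with and -0.73 without, adjusted p = 0.012), and the assembly factor Ndufaf7 by 0.23 (-0.01 with and -0.24 without, adjusted p = 0.04). In each of the 7 the change was nearer 0 with dichloroacetate. The calls of Ndufaf7, Ndufs1, Ndufs7, Ndufs4 and Ndufb5 were lost without 1 or more single libraries, Cisplatin replicate 1 among them for each. The Ndufaf7 call was also lost with DESeq2 (adjusted p = 0.11), limma (0.1), RLE scaling (0.075), no filter on low counts (0.074) and total-count scaling (0.14). Total-count scaling also ended the call of Ndufs1 (adjusted p = 0.059).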

How the results depend on the processing

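Total-count scaling without TMM, added after seeing the data, moved most counts. In Cisplatin against Saline it gave 6 higher and 18 lower with a median of -0.092, and Ndufa11 (0.116), Ndufa12 (0.109), Ndufa8 (0.054) and Ndufaf7 (0.034) turned above 0 without a call. In the combination it gave 24 higher against Cisplatin (median 0.179) and 10 higher and 8 lower against Dichloroacetate (median 0.012). Against Saline it gave 17 higher and 5 lower (median 0.085), and in the interaction 5 above 0. Of all 20370 tested genes it called 9749 higher and 3596 lower in Cisplatin against Saline. For the combination it called 2317 higher against Cisplatin, and 8458 higher and 2225 lower against Dichloroacetate. Against Saline it called 7482 higher and 2508 lower, and in the interaction 1712 above 0. DESeq2 called 1 gene higher in Dichloroacetate against Saline, no Ndufaf gene in the interaction, 1 gene of mitochondrial fatty acid synthesis higher in the combination against Cisplatin and 0 in the interaction, and 0 of ubiquinone synthesis higher in Cisplatin against Saline. Leaving out 1 library gave, in Cisplatin against Saline, 27 to 40 lower, 1 to 2 higher and medians of -0.435 to -0.269. For the combination it gave 21 to 36 higher against Cisplatin (median 0.241 to 0.334), 1 to 2 higher and 19 to 21 lower against Dichloroacetate (-0.189 to -0.153), and 3 to 12 higher and 9 to 17 lower against Saline (-0.112 to -0.003). Dichloroacetate against Saline gave 0 to 2 higher (0.046 to 0.194), and the interaction 2 to 20 (0.116 to 0.262). Over all tested genes these fits gave 5349 to 6099 lower and 5531 to 5930 higher in Cisplatin against Saline. For the combination they gave 2514 to 3742 higher against Cisplatin. Against Dichloroacetate 3511 to 3867 were higher and 3298 to 3641 lower, and against Saline 3311 to 4176 higher and 3248 to 3880 lower. Dichloroacetate against Saline had 7 to 72 higher, and the interaction 1538 to 2607 above 0. The median level of the 46 genes was 98.39 to 100.5 CPM in the combination, 77.72 to 80.78 in Cisplatin, 113.2 to 113.9 in Dichloroacetate and 96.09 to 109.7 in Saline. With the replicate block 38 of the 46 genes were lower in Cisplatin against Saline, 39 higher in the combination against Cisplatin, 23 lower against Dichloroacetate, 14 lower against Saline and 11 called above 0 in the interaction. Over all 20370 tested genes these numbers were 6253, 3788, 4033, 4130 and 2466. In the other pairs of groups the same-numbered correlations ran from -0.102 to 0.197. The cause of these shifts was not tested. RLE scaling, TMM without mitochondrial genes and both other filters kept every count of the 46 genes within 1.5 times. Each group had 3 mice, and the parts of depth and of spread between kidneys in what was called were not tested.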

Other observations

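Partners of complex I were also tested in Cisplatin against Saline, where 60.1% of all tested genes were called, 30.4% lower and 29.7% higher. Of 8 genes of complex II, which feeds electrons from succinate into the same ubiquinone pool, 5 fell and 1 rose, from Sdhb at -0.88 (SE 0.06, adjusted p = 1.8e-08) to its assembly factor Sdhaf1 at 0.33 (SE 0.05, adjusted p = 7.2e-05). Of 14 genes of iron-sulphur cluster assembly 6 fell and 4 rose, from Lyrm4 at -0.955 to Fdx1l at 0.63, and of 7 genes of mitochondrial fatty acid synthesis, in which Ndufab1 serves, 4 fell and none rose. Ubiquinone synthesis had 6 of 11 genes lower and 1 higher. Pdss2, which makes the side chain of ubiquinone, had the lowest log2 fold change of that list. It had 3.49, 3.92 and 4.78 CPM in Cisplatin kidneys, against 18.9, 20.3 and 20.7 CPM in Saline kidneys, and fell by 2.29 (SE 0.11, adjusted p = 1.1e-09). Total-count scaling gave 5 lower and 3 higher for complex II, 3 and 5 for cluster assembly, 0 and 3 for fatty acid synthesis, and 4 and 5 for ubiquinone synthesis. Of all 20370 tested genes 3596 fell and 9749 rose under that scaling.

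Among 11 regulators of mitochondrial gene expression 6 fell, 3 rose and 2 were not called, beside the same shares over all tested genes. The lowest and highest log2 fold changes of the list belonged to Esrrg and Pprc1. Esrrg, an orphan nuclear receptor, had 14.0, 13.8 and 20.0 CPM in Cisplatin kidneys, against 61.9, 68.0 and 59.8 CPM in Saline kidneys, and fell by 1.985 (SE 0.11, adjusted p = 6.5e-09). Pprc1, a coactivator of the PGC-1 family, had 40.0, 35.9 and 29.1 CPM in Cisplatin kidneys, against 17.5, 14.9 and 14.55 CPM in Saline kidneys, and rose by 1.16 (SE 0.10, adjusted p = 5e-07). In the combination against Cisplatin Esrrg rose by 1.045 (SE 0.11, adjusted p = 2.5e-05) and Pprc1 fell by 0.89 (SE 0.10, adjusted p = 4.1e-05). The median of the list was -0.25 in Cisplatin against Saline, against -0.01 over all genes, and total-count scaling gave 3 lower and 5 higher. Over all 20370 tested genes that scaling gave 3596 lower and 9749 higher.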
